A study of Mus musculus with 6 samples.

Results

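Interferon-responding smooth muscle cells (SMC) were cells of the sorted SMC lineage of the mouse aortic root that carried at least 10 unique molecular identifiers (UMIs, each standing for 1 captured mRNA molecule) of the interferon-stimulated genes Ifit1, Ifit3, Isg15 and Rsad2 in sum. They were sought among cells of the 3 lineage-positive libraries with at least 2000 UMIs, at least 500 genes, at most 10% of UMIs from mitochondrial genes and at least 1 UMI of Myh11, the smooth muscle myosin heavy chain. Of 17384 such cells, 179 reached the cut, 58 of 6033 in the library labelled Klf4-floxed Marfan, 81 of 6111 in Marfan and 40 of 5240 in Control. The other 17205 cells are the rest against which they are described below. UMIs of these 4 genes chose the cells, so every difference between the 179 cells and the rest is a description of that choice and carries no test.

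The 3 groups were male mice aged 24 weeks. Floxed Klf4 Marfan mice carried Fbn1 C1041G/+ and a floxed Klf4 allele, which the design calls an induced deletion in SMC. Marfan mice carried Fbn1 C1041G/+, a missense allele of fibrillin-1 that models Marfan syndrome, with wild-type Klf4. Control mice were littermates with neither. All 3 groups carried a tdTomato SMC lineage trace; neither the promoter that drives it nor the inducing agent is named in the labels. The aortic roots of 4 mice per group were combined before digestion with Liberase and elastase, sorted for tdTomato and captured with Chromium 3' version 3 chemistry. Each genotype was therefore 1 library, no replicate error could be had and no difference between genotypes was tested. Intervals in brackets are at 95% and cover counting error only.

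Interferons are secreted proteins that cells release after sensing viral or misplaced nucleic acid. Type I interferons bind the receptor pair Ifnar1 and Ifnar2, and type II interferon binds Ifngr1 and Ifngr2. Through JAK kinases, type I receptors chiefly activate a complex containing Stat2 and Irf9 that reads the interferon-stimulated response element (ISRE) in promoters, while type II receptors chiefly act through the gamma-activated site (GAS). The induced genes block viral replication, conjugate Isg15 to other proteins, attack pathogen vacuoles (the guanylate-binding proteins and immunity-related GTPases) and load peptides on class I molecules; type II interferon can also induce class II molecules in cells that normally lack them.

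The 4 genes of the rule all carried the element, in the stretches shown here because it is the sequence on which the 4 genes' common induction is known to rest. Sequences are RefSeq promoter windows of GRCm38.p6 (mm10), from 250 bases before to 50 after the start of each gene, cut to 20 bases around the motifs and written 5′ to 3′ along the gene's own strand. Capitals mark the ISRE core, searched as GAAANNGAAA on both strands, so that it can also read TTTCNNTTTC. The Ifit1 stretch lies at chr19:34640765-34640833 on the plus strand and its motifs begin 104 and 85 bases before the start. The Ifit3 stretch lies at chr19:34583353-34583436 on the plus strand, with motifs 156 and 122 bases before the start. The Isg15 stretch lies at chr4:156200855-156200916 on the minus strand, with 3 overlapping matches 78, 72 and 66 bases before the start. The Rsad2 stretch lies at chr12:26456543-26456592 on the minus strand, with its motif 120 bases before the start.
Ifit1: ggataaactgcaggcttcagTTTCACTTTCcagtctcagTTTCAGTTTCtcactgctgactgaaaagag
Ifit3: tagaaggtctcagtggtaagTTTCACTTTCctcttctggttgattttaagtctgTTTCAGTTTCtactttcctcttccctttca
Isg15: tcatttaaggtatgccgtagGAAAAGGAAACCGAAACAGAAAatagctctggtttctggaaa
Rsad2: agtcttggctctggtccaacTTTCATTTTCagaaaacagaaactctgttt

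Among genes that the rule did not use, the chemokine gene Cxcl10 and the GTPase genes Gbp3 and Igtp are shown as examples of genes described below whose promoter window holds the ISRE core. The Cxcl10 stretch lies at chr5:92349073-92349122 on the minus strand, with its motif 213 bases before the start. The Gbp3 stretch lies at chr3:142559979-142560034 on the plus strand, with overlapping motifs 45 and 39 bases before the start. The Igtp stretch lies at chr11:58199502-58199551 on the plus strand, with its motif 34 bases before the start. In Igtp a match to the GAS core, TTCNNNGAA, begins 45 bases before the start, in the lower-case letters just left of the capitals.
Cxcl10: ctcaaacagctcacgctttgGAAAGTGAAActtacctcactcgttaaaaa
Gbp3: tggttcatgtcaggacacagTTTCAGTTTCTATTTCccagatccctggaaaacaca
Igtp: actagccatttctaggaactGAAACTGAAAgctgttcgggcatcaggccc

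The summed UMIs of the 4 genes formed a gradient across the cut. In the library labelled Klf4-floxed, 4975 cells had none of the 4 transcripts, 903 had 1 to 2 UMIs, 97 had 3 to 9, 17 had 10 to 19, 18 had 20 to 49 and 23 had 50 or more. In Marfan these classes held 5015, 874, 141, 39, 28 and 14 cells. In Control they held 4534, 599, 67, 20, 14 and 6 cells. Just outside the cut, at 8 to 9 UMIs, stood 8, 13 and 14 cells of the library labelled Klf4-floxed, Marfan and Control, and just inside it, at 10 to 11, stood 5, 11 and 4. The median interferon-responding cell had 35.5 UMIs of the 4 genes in the library labelled Klf4-floxed, 20 in Marfan and 19 in Control, and the highest had 308, 179 and 88. The classes of 0, 1 to 2 and 3 to 9 UMIs thus held successively fewer cells in all 3 libraries, although Control had 3, 5 and 9 cells at 7, 8 and 9 UMIs. The upper tail reached furthest in the library labelled Klf4-floxed, and no gap set the 179 cells apart.

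**Figure D1:**
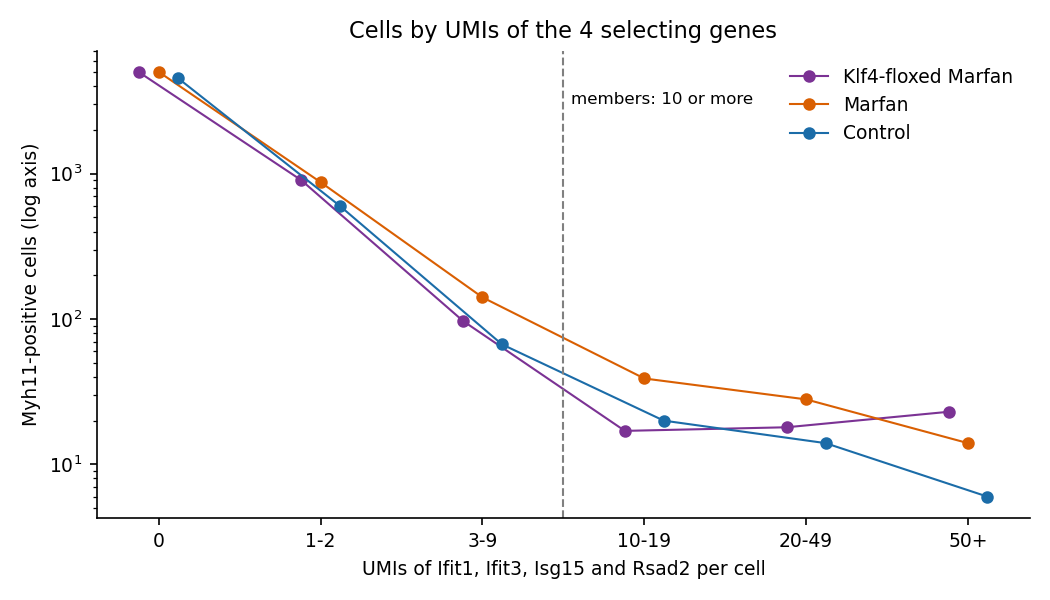
Number of Myh11-positive lineage cells (log axis) by class of summed UMIs of Ifit1, Ifit3, Isg15 and Rsad2, for the libraries labelled floxed Klf4 Marfan, Marfan and Control; classes from 10 UMIs on are the interferon-responding cells (members). There are 4975, 5015 and 4534 cells at 0 UMIs and 23, 14 and 6 cells at 50 or more, and the library labelled floxed Klf4 Marfan is the only one of the 3 with more cells at 50 or more than at 10 to 19.

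These cells made up 0.961% [0.731, 1.24] of Myh11-positive lineage cells in the library labelled Klf4-floxed, 1.33% [1.05, 1.64] in Marfan and 0.763% [0.546, 1.04] in Control. The Marfan interval lay just above the Control one, while the interval of the library labelled Klf4-floxed overlapped both. The order changed with the depth minimum: with cells of at least 1000 UMIs the shares were 0.941%, 0.726% and 0.747%, and Marfan had the lowest. Depth entered the cut directly, since median UMIs per cell of the rest were 13241, 10010 and 11664 in the same order, and 16477.5, 14976 and 11659 among interferon-responding cells. After each cell was thinned to 2000 UMIs, which left out no cell, shares with at least 10 UMIs of the 4 genes were 0.199% [0.103, 0.347], 0.196% [0.102, 0.343] and 0.153% [0.0659, 0.301]. Shares with at least 3 UMIs after thinning were 0.713% [0.516, 0.959], 1.06% [0.822, 1.35] and 0.706% [0.498, 0.972], against 2.57%, 3.63% and 2.04% before it. Shares with at least 1 UMI after thinning were 4.28% [3.78, 4.82], 7.07% [6.44, 7.74] and 3.70% [3.21, 4.25], against 17.5%, 17.9% and 13.5% before it. At equal depth the 3 intervals thus overlapped at cuts of 3 and 10 UMIs, while at 1 UMI the Marfan interval lay above both others; with 1 library each, no difference between genotypes could be tested. No cell type of the root is known to lack these inducible genes, so no share of background from free RNA could be set beside these; in the rest, Isg15 had a UMI in 10.1%, 11.1% and 7.02% of cells.

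Isg15, a ubiquitin-like modifier, was found in every interferon-responding cell of each library. It ranged over cells from 1 to 109 UMIs with a median of 14.5 in the library labelled Klf4-floxed, from 1 to 93 with a median of 12 in Marfan and from 1 to 76 with a median of 13.5 in Control. Ifit1 and Ifit3 encode proteins that bind foreign RNA. Ifit1 had medians of 6.0, 3.0 and 2.5 UMIs per cell and highest values of 45, 33 and 16 in the same order, and Ifit3 had medians of 9.5, 4.0 and 3.0 with highest values of 140, 55 and 29. Rsad2 (viperin, an enzyme that makes a chain-terminating nucleotide) was at 0 in the median cell of all 3 libraries and found in 46.6%, 39.5% and 12.5% of interferon-responding cells. Of the 179 cells, 59 had all 4 genes, 72 had 3, 40 had a pair and 8 had 1 gene alone. All 4 stood in 25 of 58, 30 of 81 and 4 of 40 cells of the library labelled Klf4-floxed, Marfan and Control. The rule and depth bear on how many of the 4 are found, so nothing is read from these counts. Summed over cells, scaled to the cells' total UMIs as CPM, Isg15 stood at 1374, 1209 and 1538 in interferon-responding cells of the library labelled Klf4-floxed, Marfan and Control, and at 10.3, 15.5 and 9.24 in the rest.

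Levels of SMC markers are given here as a description. Cells were sorted for tdTomato and had to carry Myh11, so finding either is no check of the SMC label. TDT, the reporter transcript, had a UMI in 53 of 58, 70 of 81 and 33 of 40 interferon-responding cells (91.4%, 86.4% and 82.5%), against 86.7%, 85.2% and 90.8% of the rest. Acta2, smooth muscle actin, stood at 10820 CPM in interferon-responding cells of the library labelled Klf4-floxed against 21530 CPM in its rest, at 14400 against 25660 CPM in those of Marfan and at 16030 against 22440 CPM in those of Control. Myh11 had a median of 10.5, 9 and 20.5 UMIs per interferon-responding cell, against 23, 15 and 26 in the rest, and 25 of the 179 cells met the rule with exactly 1 Myh11 UMI, against 522 of 17205 cells of the rest. The TDT share was thus above that of the rest in the libraries labelled Klf4-floxed and Marfan and below it in Control. Detection depends on depth: median UMIs were 16477.5, 14976 and 11659 per interferon-responding cell, against 13241, 10010 and 11664 in the rest. By level, TDT stood at 242, 352 and 325 CPM against 226, 420 and 342 CPM. Acta2 and Myh11 were lower than in the rest, and the identity of single cells was not tested. Klf4, the transcription factor targeted by the floxed allele, stood at 134, 99.3 and 54.2 CPM in interferon-responding cells of the library labelled Klf4-floxed, Marfan and Control and at 114, 43.1 and 27.3 CPM in their rest. Its counts were therefore highest in the very library labelled Klf4-floxed; reads of 3' tags can come from outside a deleted part and check nothing, and the genotype of this library is given throughout only as labelled.

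Markers of other cell types were set beside these. The 13 macrophage and monocyte markers summed to 1.03, 607.5 and 137.5 CPM in interferon-responding cells of the library labelled Klf4-floxed, Marfan and Control, and to 16.2, 18.1 and 34.5 CPM in the rest. They were at 0 in 57 of 58, 70 of 81 and 38 of 40 of the cells, and reached at least 3 UMIs in 0, 2 and 1 of them, the highest with 804 UMIs, a Marfan cell. The 8 endothelial markers summed to 80.1, 51.1 and 19.4 CPM, against 5.08, 8.76 and 17.3 CPM in the rest, with at least 3 UMIs in 1 cell of each library. Neutrophil, T and NK cell, B cell and mesothelial marker lists each summed to between 0 and 1.48 CPM in interferon-responding cells, and of 6 pericyte markers Rgs5 alone was at least 1.5-fold higher in each library. The 8 dendritic or plasmacytoid markers summed to 556, 898 and 1780 CPM against 71.6, 90.7 and 76.7 CPM, nearly all of it Bst2 (550.3, 888.3 and 1775 CPM in interferon-responding cells), which is also an interferon-stimulated gene; 6 of the 8 were at 0 in each library. The 6 valve interstitial or chondrocyte markers summed to 85.2, 403 and 850 CPM against 204, 318 and 278 CPM, lower than the rest in the library labelled Klf4-floxed and higher in the other libraries. Cardiomyocyte markers summed to 15.4, 26.7 and 19.4 CPM, erythroid markers to 3.08, 5.93 and 1.94 CPM and glial markers to 8.21, 11.1 and 1.94 CPM in interferon-responding cells. The part of these markers in the results was not tested. Marker UMIs of macrophages and endothelium thus sat in a handful of cells, which weigh on single genes below. Fibroblast markers, summed further below, were spread more widely. Their UMI share lay above the upper quartile of the rest in 36 of 58, 41 of 81 and 20 of 40 cells. A doublet score would have removed 1, 3 and 1 of the interferon-responding cells, against 339, 685 and 274 cells of the rest. Barcodes shared between pairs of the 6 libraries numbered 9 to 60, and 2 of the 179 cells carried a barcode found in another library.

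Many antiviral effector, GTPase and antigen presentation genes beyond the 4 that chose the cells were higher, while none of the interferon receptor genes compared was. A gene was counted as higher or lower when its CPM in interferon-responding cells over that in the rest was at least 1.5-fold in the same direction in each of the 3 libraries; 10630 genes at 2 CPM or more over all cells were compared. Of these, 344 were higher (3.24%) and 140 lower (1.32%), and the median log2 ratio, averaged over libraries, was -0.04 over the 10279 of them with a ratio in all 3. The counts were 182 and 428 when the highest interferon-responding cell of each gene was left out, and 539 and 365 without the Marfan library, 592 and 438 without Control, and 481 and 321 without the library labelled Klf4-floxed. Leaving out the highest cell takes UMIs from interferon-responding cells alone, so it lowers ratios by construction. The cells were chosen on these same libraries, so nothing is read from these shares, and a gene can pass the 2 CPM minimum through the chosen cells alone. Of 56 antiviral effector genes 34 passed the minimum and 30 of them were higher and 0 lower (median log2 ratio 3.21); the 4 others were Ifi27, Ifitm1, Ifitm2 and Tdrd7. Usp18, which removes Isg15 from proteins and dampens the type I receptor, stood at 134, 76.3 and 71.7 CPM in interferon-responding cells of the library labelled Klf4-floxed, Marfan and Control, against 0.876, 1.60 and 0.888 CPM in the rest. Its mean log2 ratio was 6.39 ± 0.84 (SD over the 3 libraries, which differ in genotype), and 64.2% of interferon-responding cells had a UMI, against 1.19% of the rest. All 4 genes of Isg15 conjugation, the others being the activating enzyme Uba7, the conjugating enzyme Ube2l6 and the ligase Herc6, were higher.

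Antiviral effectors with the largest ratios were Ifit3b, Oasl2, Rtp4, Ifi203 and Mndal. Ifit3b, at 293, 175 and 184 CPM in interferon-responding cells against 2.12, 2.02 and 2.20 CPM in the rest, is nearly identical to Ifit3 and shares its promoter motifs, so its reads cannot be cleanly separated from those of a gene that chose the cells. Oasl2, of the oligoadenylate synthetase family, stood at 94.5, 67.4 and 87.2 CPM against 1.39, 2.10 and 0.855 CPM (mean log2 ratio 5.92 ± 0.85). Rtp4, a chaperone of membrane receptors induced by interferon, stood at 136, 85.2 and 77.5 CPM against 1.36, 2.56 and 1.18 CPM (5.91 ± 0.80). For Oasl2 and Rtp4, each library's summed level in interferon-responding cells lay far above that of the rest in every library. These are sums and not values of single cells: Oasl2 had 92, 91 and 45 UMIs over the 58, 81 and 40 cells. Ifi203 and Mndal, neighbouring nuclear DNA-binding proteins of the p200 family, had mean log2 ratios of 5.57 ± 0.61 and 5.11 ± 0.89 but a UMI in 21.8% and 19% of interferon-responding cells. The most widely found effectors were already present in the rest: Ifitm3, which blocks viral entry in endosomes, had a UMI in every interferon-responding cell and stood at 2223, 3018 and 5293 CPM, against 394.6, 514.5 and 401.9 CPM, and Bst2 (tetherin) stood at 550.3, 888.3 and 1775 CPM, against 64.8, 83.5 and 71.2 CPM.

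**Figure D2:**
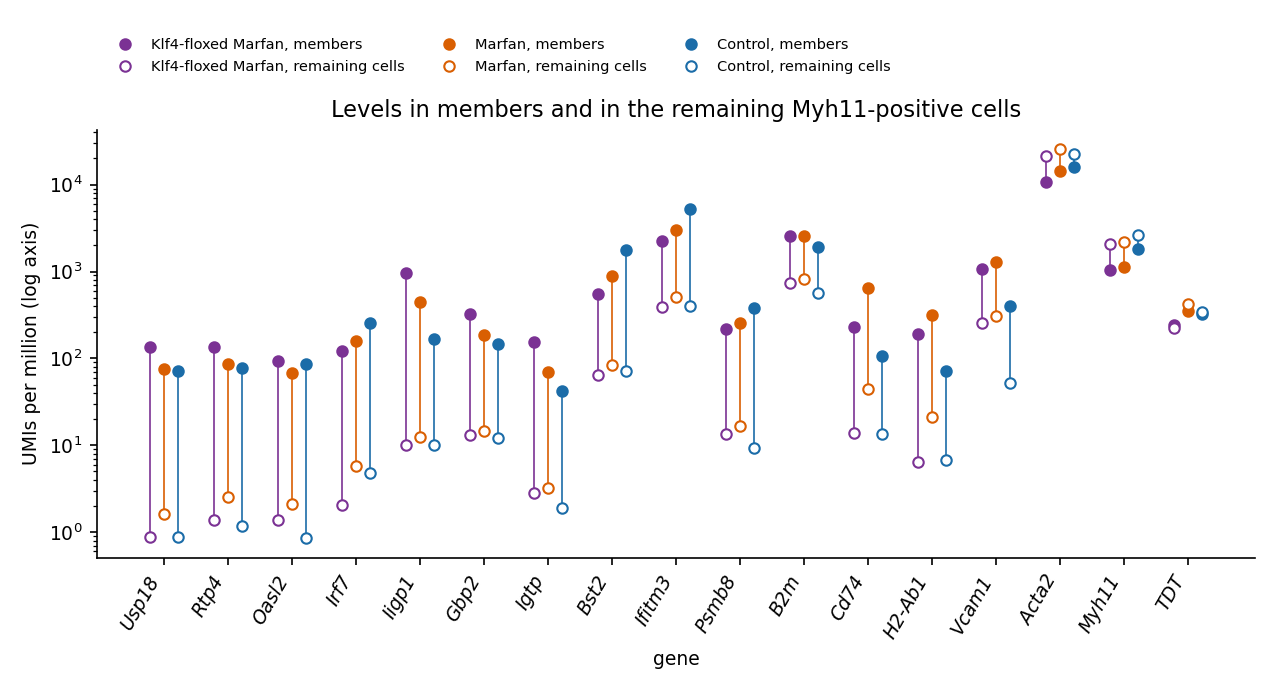
CPM (log axis) of 17 genes in interferon-responding cells (members, filled) and in the remaining Myh11-positive cells (open) of the libraries labelled floxed Klf4 Marfan, Marfan and Control. Usp18 is at 134, 76.3 and 71.7 CPM against 0.876, 1.60 and 0.888 CPM, while TDT is at 242, 352 and 325 CPM against 226, 420 and 342 CPM.

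Upstream of these genes, the signalling chain was unevenly represented. No UMI of any of 10 interferon ligand genes was found in the 179 cells, and 8 of these genes had no UMI in any cell compared. Of 6 receptor genes 5 passed the minimum and none was higher or lower: Ifnar2 stood at 89.3, 73.3 and 48.4 CPM in interferon-responding cells against 46.1, 50.8 and 46.6 CPM in the rest, and Ifngr1 at 99.6, 82.2 and 73.6 CPM against 57.0, 57.0 and 55.5 CPM. Kinases were likewise neither, with Jak1 at 101, 92.6 and 77.5 CPM against 67.8, 65.4 and 60.9 CPM. Among the transcription factors downstream of them, Stat2, Irf9, Irf1 and Irf7 were some of those higher. Irf9 stood at 104, 70.4 and 134 CPM in interferon-responding cells against 10.8, 12.6 and 10.4 CPM in the rest, a mean log2 ratio of 3.15 ± 0.61. Irf7, the factor that amplifies type I interferon production, was in 65.4% of interferon-responding cells and 2.74% of the rest, with a ratio of 5.47 ± 0.59. Receptor and kinase genes thus stayed under 1.5-fold in at least 1 library each, while these 4 factors stood at 3.66 to 59.2 times the level of the rest.

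Among nucleic acid sensors, Ddx58 (RIG-I), Ifih1 (MDA5) and Tlr3, which detect double-stranded or uncapped RNA, were higher (3 of 8 that passed). Ifih1 stood at 56.5, 47.4 and 46.5 CPM in interferon-responding cells against 3.17, 2.83 and 2.27 CPM in the rest. The adaptor Mavs stood at 9.24, 7.41 and 11.6 CPM against 10.8, 10.9 and 11.9 CPM and was neither. Of 10 genes that restrain the response or clear nucleic acid, 5 were higher: the receptor inhibitor Socs1, the RNA editor Adar, the nucleotide hydrolase Samhd1, the DNA exonuclease Trex1 and the antibody receptor Trim21. The 3 subunit genes of RNase H2 in that list were neither, with mean log2 ratios of -0.25, 0.19 and -0.32 for Rnaseh2a, Rnaseh2b and Rnaseh2c.

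The interferon-inducible GTPases were higher throughout those compared. Of 17 genes 9 passed the minimum and all 9 were higher, with a median log2 ratio of 4.41. Iigp1, an immunity-related GTPase that coats pathogen vacuoles, stood at 958.8, 443.8 and 168.5 CPM in interferon-responding cells of the library labelled Klf4-floxed, Marfan and Control, against 10.1, 12.6 and 10.1 CPM in the rest. It had a UMI in 76.0% of interferon-responding cells and 8.28% of the rest, so its level was spread over most of the cells. Gbp3, a guanylate-binding protein, stood at 92.4, 119 and 192 CPM against 2.80, 3.35 and 2.96 CPM, and Igtp at 156, 68.9 and 42.6 CPM against 2.82, 3.26 and 1.91 CPM. The order of the libraries among interferon-responding cells thus differed between members of this family.

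Antigen presentation genes were higher in both classes. Of 19 class I genes 17 passed the minimum and 15 were higher (median 2.25), the others being Tap2 and Erap1. The light chain B2m stood at 2555, 2547 and 1912 CPM in interferon-responding cells against 729.8, 823 and 559 CPM in the rest, and the heavy chain H2-K1 at 855.2, 1050 and 482.4 CPM against 134.5, 178.9 and 116.3 CPM. Class I genes of the H2-Q and H2-T groups are near-identical copies whose reads the counting may split, so their single values are uncertain. The immunoproteasome subunit Psmb8 had a larger ratio, with 216, 253 and 384 CPM against 13.6, 16.7 and 9.29 CPM. Of 7 class II genes 5 passed the minimum and all 5 were higher (median 3.77): Cd74 (the invariant chain), H2-Aa, H2-Ab1, H2-Eb1 and H2-DMb1. Cd74 stood at 228, 638 and 107 CPM against 13.8, 43.9 and 13.5 CPM, but had a UMI in 19%, 33.3% and 15% of interferon-responding cells, with medians of 0.

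The class II transcripts marked a subset of the cells. At least 10 UMIs of the class II list were found in 7 of 58, 16 of 81 and 5 of 40 interferon-responding cells of the library labelled Klf4-floxed, Marfan and Control, or 12.1% [4.99, 23.3], 19.8% [11.7, 30.1] and 12.5% [4.19, 26.8]. In the rest they were found in 0.452%, 1.31% and 0.327% of cells. Macrophage markers stayed under 3 UMIs in 7, 14 and 4 of these class II cells, and were at 0 in 7, 12 and 4. Fibroblast markers were present in many of them. In the 3 cells with most class II UMIs they had 162, 245 and 65 UMIs in the library labelled Klf4-floxed. In Marfan they had 695, 62 and 441 UMIs, and in Control 33, 32 and 0. Whether the class II cells were SMC was not tested. Within a library the share of UMIs from the GTPase list and that from the class II list had Spearman correlations of 0.44, 0.41 and 0.49 over 58, 81 and 40 cells, whereas the share from the 4 genes of the rule and the class II share had -0.08, -0.04 and 0.41. The class II list was at 0 UMIs in 46 of 58, 48 of 81 and 27 of 40 cells, so these values hold many ties. The cells were also cut on the 4 genes of the rule, so nothing is concluded from the correlations. These correlations are descriptions over cells that share a library and its depth.

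Chemokines were carried by very few cells. Of 16 chemokine and cytokine genes 10 passed the minimum and 6 were higher: Cxcl10, Ccl7, Ccl2, C3, Cx3cl1 and Cxcl12. Cxcl10, the ligand that attracts T cells through Cxcr3, had the largest mean ratio of the genes named here, at 7.67 ± 2.25 on the log2 scale, from 537, 34.1 and 29.1 CPM in interferon-responding cells against 0.462, 0.269 and 0.510 CPM in the rest. It was found in 10 of 58, 8 of 81 and 1 of 40 interferon-responding cells; in the library labelled Klf4-floxed 491 of its 523 UMIs came from 2 cells, and in Control all 15 came from 1. Ccl2, which attracts monocytes, had 92.1%, 66.8% and 100% of its UMIs in the 2 highest cells of each library. Cxcl12, in contrast, which SMC express at rest, stood at 220, 253 and 205 CPM against 94.5, 95.9 and 101 CPM. Cxcl10 and Ccl2 values therefore describe single cells rather than the 179.

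**Figure D3:**
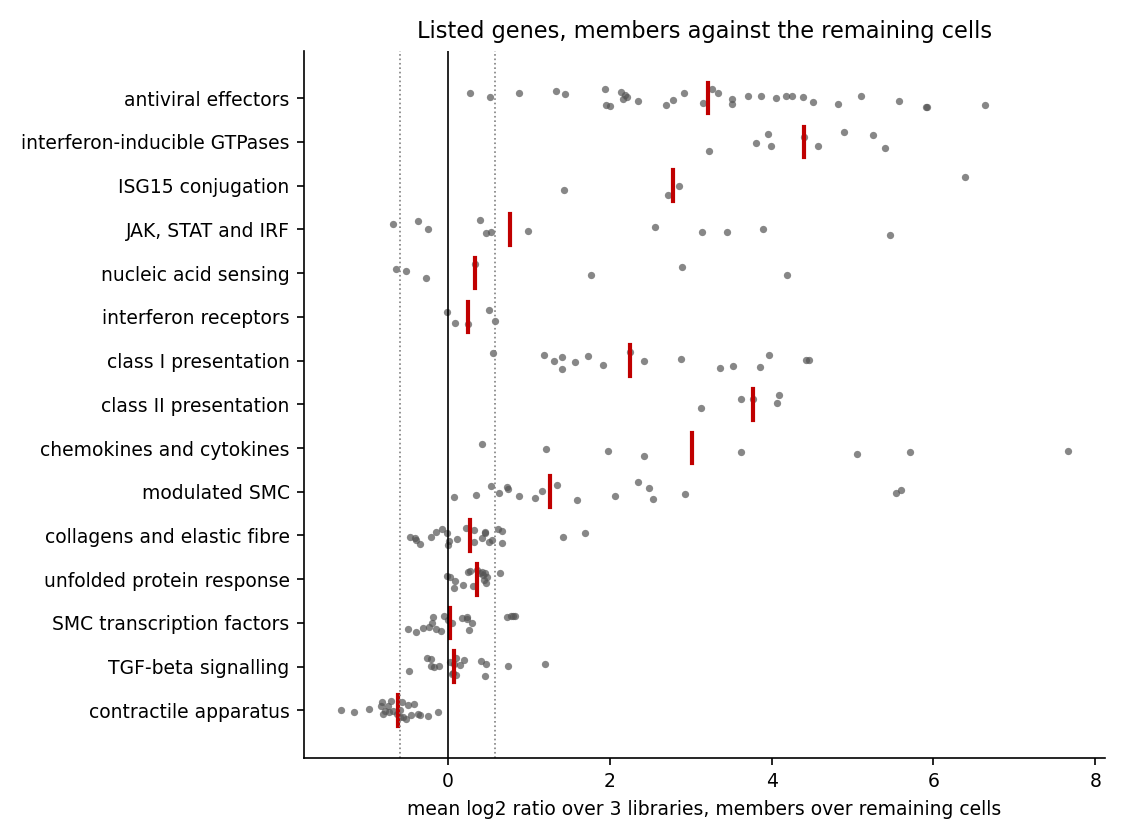
Mean log2 ratio over the 3 libraries of interferon-responding cells to the remaining cells, 1 point per gene that passed 2 CPM, by gene list, with the list's median in red and dotted lines at 1.5-fold. Medians are 4.41 for the GTPases, 3.77 for class II, 3.21 for antiviral effectors, 2.25 for class I and -0.61 for the contractile apparatus.

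Surface and marker genes of the Ly6 family completed the genes named by size of ratio. Ly6a (Sca-1), a marker of modulated SMC and of progenitors that interferon also induces, stood at 146, 413 and 118 CPM in interferon-responding cells against 1.33, 12.3 and 4.37 CPM in the rest (5.54 ± 1.09), with a UMI in 17.3% of interferon-responding cells. Ly6e, which restricts viral entry, stood at 280, 344.5 and 678 CPM against 8.26, 19.1 and 10.0 CPM (5.11 ± 0.96) and was in 56.4% of the cells. The 12 largest ratios were those of Cxcl10, Ifit3b, Usp18, Oasl2, Rtp4, Ifi203, Ly6a, Irf7, Gbp3, Iigp1, Ly6e and Mndal.

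Genes with a promoter window were counted by these groups, a gene holding a motif when any of its windows did. The ISRE core was held by 3.99% of all 27025 genes in the table and by 3.12% of compared genes that were neither higher nor lower. It was held by 46 of 265 higher genes (17.4%) and by 0 of 108 lower ones. By list it was held by 22 of 44 antiviral effector genes, 9 of 10 GTPase genes, 5 of 17 class I genes and 0 of 4 class II genes. The GAS core was held by 9.55% of all genes in the table, by 13.6% of higher genes, by 8.33% of lower genes and by 6 of 10 GTPase genes. Of the 12 genes with the largest ratios 7 were in the table and 5 of these held the ISRE core, while none of 7 in the table did among the 12 smallest. A match here is a run of letters in a window and not a shown site.

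Genes lower in interferon-responding cells had smaller ratios. The 12 smallest mean log2 ratios were those of Sparcl1, Rgs4, Sphkap, Actg2, Npy1r, Fibin, Plat, Nrtn, Ptprz1, Chd3, Pgm5 and Rrad, from -1.46 to -0.94. Sparcl1, a matricellular protein, stood at 153.0, 140.8 and 153.0 CPM in interferon-responding cells of the library labelled Klf4-floxed, Marfan and Control, against 338.0, 359.5 and 567.7 CPM in the rest. Rgs4, which shortens G protein signalling, stood at 21.6, 15.6 and 38.8 CPM against 47.1, 53.0 and 75.5 CPM, and Npy1r, a neuropeptide Y receptor that constricts vessels, at 85.2, 116 and 77.5 CPM against 181, 215 and 207 CPM. Sparcl1 was in 40.8% of interferon-responding cells and 69.2% of the rest, so it was still found in many of them.

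The contractile program leaned lower without most genes passing 1.5-fold in each library. Of 24 genes Actg2, the gamma smooth muscle actin, was lower and the other 23 were neither, but the median log2 ratio was -0.61, against -0.04 over all compared genes. Cnn1 (calponin) stood at 430, 670.5 and 936 CPM in interferon-responding cells against 1196, 1356 and 1244 CPM in the rest. Per cell, the share of UMIs from the contractile list lay below the first quartile of the rest in 40 of 58, 52 of 81 and 23 of 40 interferon-responding cells. Of 18 genes known from modulated SMC 12 were higher (median 1.26); these were Spp1, Timp1, Vcam1, Ly6a, Ly6c1, Lum, Dcn, Fbln2, Thbs1, Mgp, Cd34 and Igfbp3. The adhesion molecule Vcam1 stood at 1073, 1279 and 397 CPM against 252, 311 and 51.8 CPM, and the proteoglycan Dcn at 1286, 3030 and 1437 CPM against 275, 324 and 354 CPM. Fibroblast markers, which share Lum, Dcn and Cd34 with that list, had 5 of 7 that passed higher, and summed to 2967, 5258 and 3567 CPM against 1054, 1138 and 1142 CPM. Whether the cells were modulated SMC or traced cells with fibroblast transcripts was not tested.

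Set against cells of the rest with a similar contractile share, medians of the modulated and fibroblast lists were small, while those of the interferon lists stayed high. The cells were chosen on interferon genes and matched on contractile share alone. The high interferon medians are therefore set by that choice, and the setting cannot separate interferon response from cell state. For this setting, chosen after the data were seen, each interferon-responding cell was given its 10 nearest cells of the rest by contractile share, 512, 698 and 348 different cells. The median log2 ratio of the modulated list was then 0.23, with 2 of 18 genes higher, and that of fibroblast markers 0.17, with 0 of 9 higher. Antiviral effectors had a median of 2.93 with 39 of 44 higher, GTPases 3.84 with 11 of 12, class I genes 1.95 with 13 of 18 and class II genes 2.92 with 5 of 6. The 2 CPM minimum was applied anew to these fewer cells, so more genes passed it through the chosen cells. No share over all genes is set beside these counts, and nothing is read from them. Without the cells that carried at least 3 macrophage or endothelial marker UMIs, also chosen after the data were seen, 28 of 32 antiviral, 5 of 5 class II, 10 of 17 modulated and 5 of 7 fibroblast genes were higher. Class II transcripts then summed to 681, 1444 and 174 CPM. Cells with fibroblast marker UMIs stayed in under this setting.

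The interferon genes were also graded below the cut. Antiviral effector transcripts outside the 4 rule genes summed to 1832 CPM in cells without rule UMIs, 2196 at 1 to 2, 3284 at 3 to 9, 5422 at 10 to 19 and 9082 at 20 or more in the library labelled Klf4-floxed. The same classes held 1912, 2722, 4683, 6602 and 10966 CPM in Marfan and 1805, 2298, 6017, 9136 and 17515 CPM in Control. GTPase transcripts summed to 52.0, 84.6, 292, 2309 and 2548 CPM in the library labelled Klf4-floxed, to 50.2, 104, 275, 932 and 1660 CPM in Marfan and to 48.4, 64.6, 242, 417 and 1305 CPM in Control. Each step up in rule UMIs thus came with more of both lists in every library. The rule UMIs themselves set these classes, so this too is a description. Depth also differed: median UMIs per cell were 13070, 9594 and 11494.5 at 0 rule UMIs. At 20 or more they were 16672, 16778.5 and 12093.5 in the library labelled Klf4-floxed, Marfan and Control. Class II transcripts were highest at 10 to 19 UMIs in the library labelled Klf4-floxed (1238 CPM, against 384 at 20 or more) and in Marfan (1945 against 1028), but not in Control (202 against 405). The contractile list over the same 5 classes summed to 78388, 61226, 47930, 42935 and 42867 CPM in the library labelled Klf4-floxed, to 87143, 66351, 58181, 54610 and 46393 CPM in Marfan and to 82318, 76923, 64540, 74308 and 53105 CPM in Control. It was lower in each further class in the library labelled Klf4-floxed and in Marfan, while in Control it was higher at 10 to 19 UMIs than at 3 to 9. Receptor genes stood at 260, 288, 342, 402 and 370 CPM over the 5 classes in the library labelled Klf4-floxed, whereas Control had 226, 224, 259, 230 and 268 CPM.

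**Figure D4:**
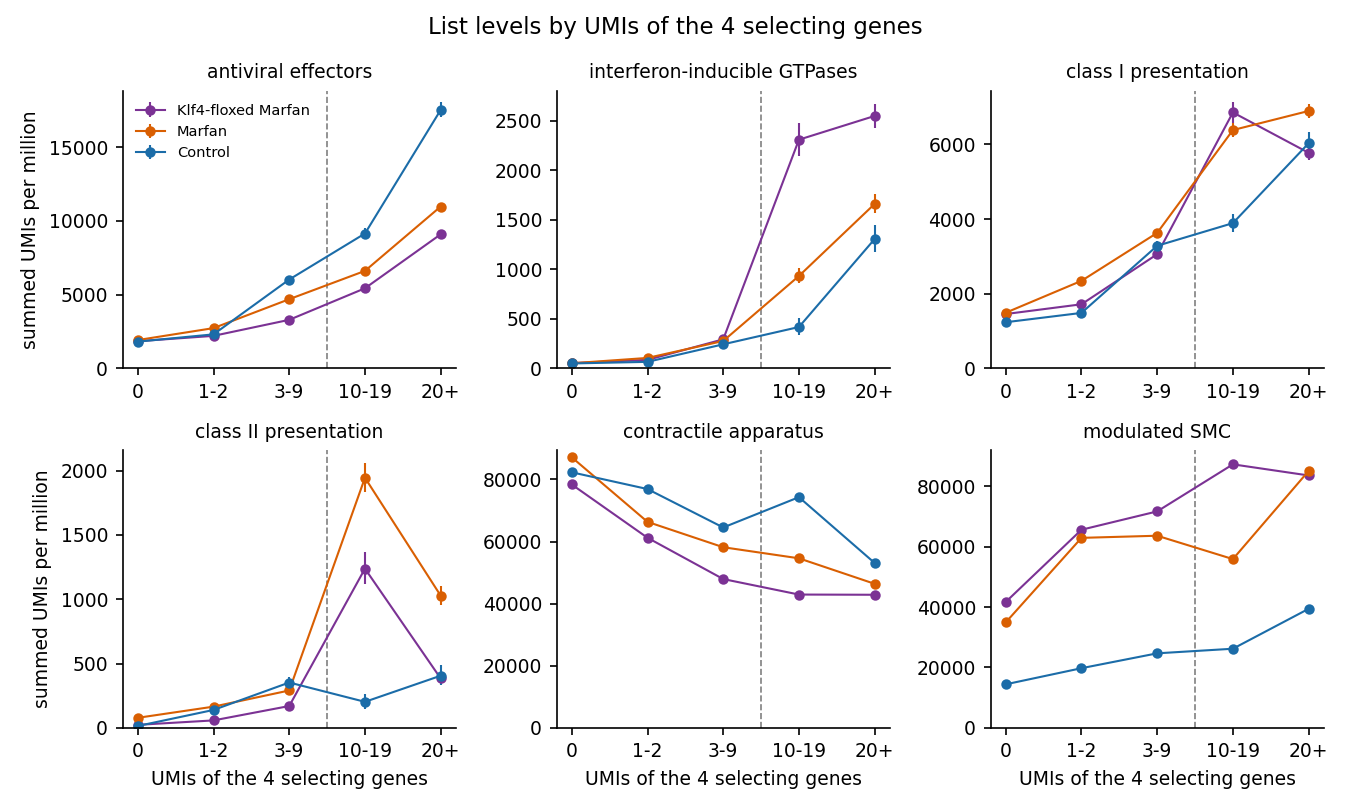
Summed CPM of 6 gene lists by class of rule UMIs (Ifit1, Ifit3, Isg15 and Rsad2 together) for the libraries labelled floxed Klf4 Marfan, Marfan and Control; bars are 95% Poisson intervals and cover counting error only. Antiviral effectors step up from 1832, 1912 and 1805 CPM at 0 UMIs to 9082, 10966 and 17515 CPM at 20 or more.

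Between genotypes, interferon-responding cells of the 3 libraries differed in which interferon genes stood highest. These comparisons rest on 58, 81 and 40 cells, 1 library each, and each pair shares a library with the others. At 1.5-fold either way, floxed Klf4 Marfan over Marfan had 155 higher (5.29%) and 109 lower (3.72%) of 2930 genes compared, Marfan over Control 298 (9.92%) and 287 (9.55%) of 3005, and floxed Klf4 Marfan over Control 371 (12.1%) and 298 (9.75%) of 3057. Of 15 GTPase genes with at least 20 UMIs, 12 were highest in the library labelled Klf4-floxed and 12 were lowest in Control. For such counts of highest and lowest genes, here and below, no count over all genes was made, so they are descriptions only. Interferon-responding cells of Control held the fewest UMIs, 516187, so single values are least certain there. Their transcripts summed to 2469, 1326 and 880 CPM in interferon-responding cells of the library labelled Klf4-floxed, Marfan and Control, against 62.2, 67.6 and 53.1 CPM in the rest. Iigp1 was 2.51 [2.19, 2.84] higher in the library labelled Klf4-floxed than in Control on the log2 scale, Gbp5 3.00 [1.91, 4.35] and Igtp 1.87 [1.22, 2.59]; in the rest the same differences were -0.01, -0.26 and 0.57. Irf1, the factor that acts on many GTPase genes, stood at 130, 54.8 and 46.5 CPM (1.49 [0.85, 2.18] over Control).

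Another set stood highest in Control. Ifi27l2a, an interferon-stimulated mitochondrial protein gene, stood at 343, 823 and 2021 CPM in interferon-responding cells of the library labelled Klf4-floxed, Marfan and Control, which is -2.56 [-2.74, -2.38] on the log2 scale for floxed Klf4 Marfan over Control. In the rest it stood at 25.6, 70.3 and 69.4 CPM. Bst2 differed by -1.69 [-1.85, -1.53] and Ifitm3 by -1.25 [-1.33, -1.17] over the same pair, against -0.14 and -0.03 in the rest. Irf7 stood at 123, 159 and 256 CPM, Psmb8 at 216, 253 and 384 CPM and Ly6e at 280, 344.5 and 678 CPM. Summed antiviral effectors were accordingly highest in Control, at 7868, 8964 and 13501 CPM, although 26 of 47 single effectors with at least 20 UMIs were highest in the library labelled Klf4-floxed and 12 in Control. For floxed Klf4 Marfan over Control the median of single genes (0.22) and the sum (-0.78) had opposite signs on the log2 scale.

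**Figure D5:**
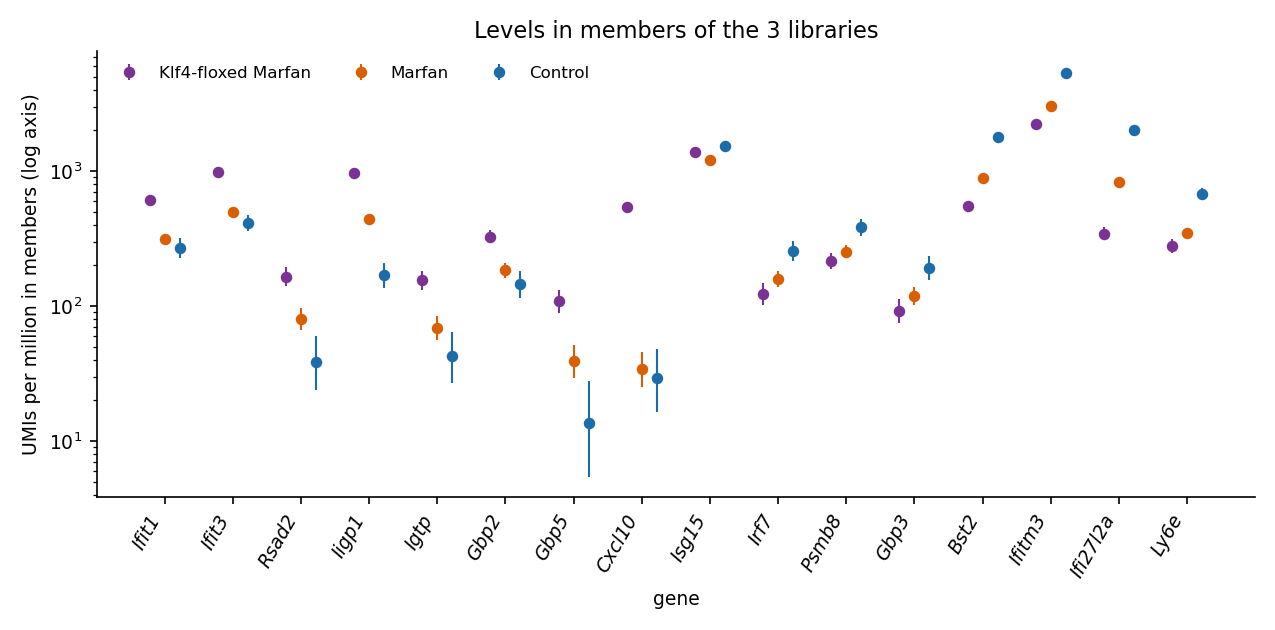
CPM (log axis) of 16 genes in interferon-responding cells of the libraries labelled floxed Klf4 Marfan (58 cells), Marfan (81) and Control (40), with 95% Poisson intervals for counting error only. Iigp1 stands at 958.8, 443.8 and 168.5 CPM, whereas Ifi27l2a stands at 343, 823 and 2021 CPM.

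Class II genes ordered differently again: all 6 with at least 20 UMIs were highest in Marfan and lowest in Control. They summed to 667, 1448 and 308 CPM in interferon-responding cells of the library labelled Klf4-floxed, Marfan and Control, and to 32.0, 101 and 35.0 CPM in the rest, which was thus also highest in Marfan. H2-Ab1 was 2.15 [1.66, 2.67] higher in Marfan than in Control on the log2 scale within interferon-responding cells and 1.67 in the rest. Unlike class II, the GTPase list in the rest did not have its highest sum in the same library as in interferon-responding cells. Contractile genes were highest in Control in 20 of 24 cases within interferon-responding cells, and none of the 18 modulated genes was. The modulated list summed to 84802, 71684 and 33085 CPM in interferon-responding cells, against 46342, 40812 and 15239 CPM in the rest. Its sum was thus lowest in Control in the rest as well. The contractile list summed to 42889, 50162 and 63262 CPM, against 74876, 82501 and 81383 CPM.

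Genes with the largest differences between genotypes often came from few cells. For floxed Klf4 Marfan over Marfan these were Cxcl10, Igfbp3, Gpihbp1, Ahsg, Fetub, Sox4, Steap4 and Gdf10 upward and Cxcl2, Prg4, Ccl4, C1qa, Il1b, C1qb, C1qc and Fcer1g downward. The complement genes C1qa, C1qb and C1qc, with Il1b, Ccl4 and Cxcl2, are macrophage transcripts of which 98.8% or more in Marfan came from 1 cell. Fetub, a protease inhibitor, was spread more widely, in 28 of 58 cells of the library labelled Klf4-floxed and 18 of 81 in Marfan, at 166 and 42.2 CPM, while the rest stood at 54.5 and 40.9 CPM. For Marfan over Control, Lcn2, an iron-binding acute-phase protein, stood at 240 CPM in 13 Marfan cells with no UMI in Control, which makes it at least 41.3-fold higher against a floor of 3 UMIs in Control. The complement component C3 stood at 233 CPM in 19 cells against 9.69 CPM in 3, and the class I gene H2-Q7 at 93.3 CPM in 21 cells against 3.87 CPM in 2; in the rest C3 stood at 18.8 against 2.40 CPM and H2-Q7 at 5.08 against 0.444 CPM. Among the largest differences toward Control were those of Tnfaip6, Lrrc17, Kcnj15, Sfrp1, Comp, Penk and Fibin. Comp, a cartilage matrix protein, stood at 129 CPM in Marfan cells and at 577 CPM in Control cells, with 52.3% of its Control UMIs in 1 cell. For floxed Klf4 Marfan over Control, the stromelysin Mmp3 stood at 386 against 13.6 CPM, with 41.2% of its UMIs in 1 cell.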

How the data were processed

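The deposited values were raw UMI counts per gene and cell barcode, written by the authors with Cell Ranger 6.1.2, per the file headers, and aligned to mm10, as the submitters' processing notes list it; no annotation release or barcode calling setting is stated. The 3 lineage-positive libraries held 8943 (floxed Klf4 Marfan), 22905 (Marfan) and 8218 (Control) barcodes with 95250397, 87881816 and 71583972 UMIs, of which 6201, 6278 and 5306 cells passed the limits on UMIs, genes and mitochondrial share. The 3 lineage-negative libraries were used for a share of cells alone. Doublets stayed in, and their removal with scanpy 1.11.5 (Scrublet) was an alternative.

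Counts were summed per library and class and scaled to CPM. Intervals are exact: conditional binomial for ratios, Poisson for levels, Clopper-Pearson for shares. A floor of 3 UMIs bounds ratios against 0. With 1 library per genotype there was no test. Named genes were the 12 largest and 12 smallest mean log2 ratios past 1.5-fold in each library with at least 50 CPM and a UMI in at least 10% of cells of the higher class, the 8 largest and smallest between genotypes with at least 50 CPM and 20 UMIs, and up to 8 per list; chemokines and receptors are named beyond it where a count needs them. Cells, members and lists were chosen with earlier results of these data known. The ratios were tested on simulated data. Calculations used Python 3.11.15, numpy 2.4.6, scipy 1.17.1 and pandas 2.3.3. Alternatives changed the cut, depth, mitochondrial, Myh11 and doublet limits, the scaling, the gene filter and the libraries used. Some genes that the rule names are not reported here.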

Additional observations from a re-analysis of the deposited data

Results flagged for a closer look

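A set of 3 genes moved in opposite directions between libraries, past 1.5-fold each way, when interferon-responding cells were set against the rest; the differences between libraries were not tested. Atf3, a stress-induced transcription factor, had a log2 ratio of -0.86 in the library labelled Klf4-floxed and 1.01 in Marfan. Cytl1, a secreted protein of cartilage, had -1.73 in the library labelled Klf4-floxed and 1.66 in Control. Mmp3, a matrix metalloproteinase, had 2.05 in the library labelled Klf4-floxed, 1.21 in Marfan and -1.07 in Control.

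The lineage-negative libraries, which the comparisons did not use, held a far larger share of cells at the same cut. Among their cells without Myh11, 754 of 5721 in the library labelled Klf4-floxed (13.2% [12.3, 14.1]) and 870 of 6392 in Marfan (13.6% [12.8, 14.5]) carried at least 10 UMIs of Ifit1, Ifit3, Isg15 and Rsad2, against 338 of 4097 in Control (8.25% [7.43, 9.13]). Among lineage-negative cells with Myh11 the shares were 9.81%, 10.9% and 7.97% of 367, 422 and 251 cells.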

How the results depend on the processing

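No ratio of the 24 named genes and no list median reversed its direction under any alternative that gave a value. The 24 genes were picked for their largest and smallest ratios, and the cells were chosen on interferon genes. The lack of a reversal was therefore largely set by these choices, and nothing is read from it. Cxcl10 had no value under some alternatives, such as the higher depth minimum and the lower mitochondrial limit. Ly6a had none under the higher Myh11 minimum. The counts of values for named genes leave these out. Of 472 values for the 24 named genes, 426 moved by no more than their SD over the 3 libraries and 46 by more. For the 6 list medians the figures were 95 and 25 of 120. The 3 libraries differ in genotype, so this SD is a wide measure for some genes, such as Cxcl10 (2.25). No paired analysis was possible because each genotype was 1 library. The causes of the shifts below were not tested.

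The share of interferon-responding cells in the library labelled Klf4-floxed, Marfan and Control was 1.49%, 2.16% and 1.39% at a cut of 5 UMIs, 0.680%, 0.687% and 0.382% at a cut of 20, and 0.199%, 0.196% and 0.153% thinned at a cut of 10. It was 0.713% in the library labelled Klf4-floxed both thinned at a cut of 3 and with at least 5 Myh11 UMIs, 1.98% in Marfan with at least 8000 UMIs per cell, and 0.941%, 0.726% and 0.747% in the 3 libraries with at least 1000. The order of the shares turned in these settings: Marfan was below Control and the library labelled Klf4-floxed at 1000 UMIs, Marfan was below the library labelled Klf4-floxed when thinned at a cut of 10, and the library labelled Klf4-floxed was just below Control at no more than 5% mitochondrial UMIs (1.11% each). The Marfan share thus followed the depth limit most.

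The antiviral median (3.21) was 2.89 with at least 5 Myh11 UMIs, 2.91 with 1 TDT UMI as well, 2.98 without cells with macrophage or endothelial markers, 2.86 without the highest cell of each gene, 2.93 against the rest matched on contractile share, 3.71 without the filter, 3.42 at a cut of 20 UMIs with 1 to 9 left out, and 3.02 to 3.37 when a library was left out. The contractile median (-0.61) was -0.39, -0.40 with TDT, -0.13 matched and -0.83 at the cut of 20. Genes higher (344) numbered 182 without the highest cell of each gene, 173 matched, and 481 to 592 with a library left out (539 without Marfan, 592 without Control); genes lower (140) numbered 428, 69, and 321 to 438 with a library left out (365 without Marfan), and 225 at the cut of 20. A rule that asks for 3 libraries calls more genes when 2 are left, by construction. Leaving out the highest cell of each gene in interferon-responding cells alone likewise lowers ratios to the rest, and so gives fewer higher and more lower genes.

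For summed antiviral effectors, floxed Klf4 Marfan over Marfan (-0.19) was -0.10 at 5% mitochondrial, -0.28 with Myh11, -0.28 with TDT as well, -0.23 with each cell weighted alike, -0.33 with a cut relative to depth, -0.24 without other markers and -0.23 without the highest cell. Marfan over Control (-0.59) was -0.49 at 8000 UMIs, -0.33 with Myh11, -0.33 with TDT, -0.71 with each cell alike, -0.47 with median-of-ratios scaling, -0.54 without other markers and -0.54 without the highest cell. Floxed Klf4 Marfan over Control (-0.78) was -0.67 at 8000 UMIs, -0.67 at 5% mitochondrial, -0.61 with Myh11, -0.61 with TDT, -0.94 with each cell alike, -0.67 by median of ratios and -0.93 with the relative cut. The settings on TDT, other markers, the highest cell and the matched rest were chosen after seeing the data.

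Depth limits what the 40 Control cells can show, and a library that stands for 4 combined mice gives no spread between animals.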

Other observations

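None of 22 immediate early and heat shock genes and none of 17 unfolded protein response genes that passed 2 CPM was higher or lower by 1.5-fold in each library, with median log2 ratios of 0.19 and 0.37. Of 13 metallothionein and stress genes 4 were higher: Cebpd, Nfkbia, Tnfaip3 and Icam1. Nfkbia, the inhibitor of NF-kappa B that the factor itself induces, stood at 245, 238 and 217 CPM in interferon-responding cells of the library labelled Klf4-floxed, Marfan and Control, against 114, 110 and 110 CPM in the rest. Tnfaip3, another such inhibitor, stood at 20.5, 14.8 and 19.4 CPM against 2.83, 2.99 and 3.07 CPM.

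Of 12 cell death genes that passed, Casp4, the caspase that senses cytosolic lipopolysaccharide, was higher, at 45.2, 35.6 and 17.4 CPM against 12.2, 13.7 and 5.31 CPM. Of 21 SMC transcription factor genes Gata4 and Nr2f1 were higher and none lower (median 0.03). Of 24 collagen and elastic fibre genes Col8a1 and Fbln1 were higher (median 0.28), and of 19 TGF-beta signalling genes Smad3 was (median 0.07). Of 5 cell cycle genes that passed, Mcm6 and Ccnd1 were higher, with Ccnd1 (cyclin D1) at 118, 69.6 and 27.1 CPM against 22.4, 18.3 and 3.19 CPM.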
